A study of Mus musculus with 23 samples.

Results

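This comparison asked whether a pair of hypomorphic Bub1b alleles (HH) changed RNA levels by the same factor in skeletal muscle as in fat of the same strain and age. It used 15 of the 23 libraries of the series, chosen by their labels: gastrocnemius muscle of HH mice (3 libraries) and of wild-type (WT) mice (4 libraries), and fat of HH mice (4 libraries) and of WT mice (4 libraries). All mice were of a 129Sve/C57BL/6 mix, untreated as far as the labels go, and 8 to 10 months old. H is the hypomorphic allele, and the fat is labelled IAT, which the labels do not spell out. For each gene the HH effect is the log2 ratio of HH to WT within a tissue, and the difference of effects is the effect in muscle minus the effect in fat, so that a positive difference means a higher HH to WT ratio in muscle. Of the 24062 genes counted, the 11860 with mean levels of 1 CPM or more (counts scaled to the library total) in muscle and again in fat were tested. The labels do not say whether muscle and fat came from the same mice, or that each library came from an animal of its own, so the p-values measure the spread between these libraries.

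Bub1b encodes BubR1, a protein of the spindle assembly checkpoint, which holds back the anaphase-promoting complex until the chromosomes are attached to the spindle. Mutations of the human gene cause mosaic variegated aneuploidy, and mice with little BubR1 are known for early ageing features, muscle wasting and loss of fat among them. Most RNA of gastrocnemius comes from muscle fibres, which do not divide, whereas fat holds lipid-storing adipocytes beside progenitors, vessels, macrophages and, where present, lymphoid tissue. In RNA from whole tissue, fewer cells of a type and less RNA per cell cannot be told apart.

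The targeted gene was measured first. Bub1b (chr2:118598202-118641592, GRCm38) had 0.461, 0.498 and 0.759 CPM in HH muscle, against 1.39, 1.29, 1.06 and 1.11 CPM in WT muscle. All HH muscle libraries lay below all WT muscle libraries, with a fitted effect without the filter of log2 -1.11 ± 0.32 that did not pass (edgeR adjusted p = 0.215). Fat levels were 4.15, 8.45, 10.5 and 6.59 CPM in HH libraries, against 4.85, 7.85, 6.98 and 7.69 CPM in WT libraries, and the groups overlapped. Its mean in muscle was under the filter, so it was fitted only in that way, where the difference of effects was log2 -1.14 ± 0.42 (SE) with an edgeR adjusted p of 0.157. Cdkn2a, which encodes the cell cycle inhibitor p16Ink4a and the p53 activator p19Arf, was under the filter in muscle too. It had 0.658, 1.38 and 0.854 CPM in HH muscle, against 0, 0.155, 0.152 and 0.0673 CPM in WT muscle. The fat values were 1.81, 6.70, 4.81 and 1.67 CPM in HH libraries, against 0.682, 1.30, 1.25 and 0.736 CPM in WT libraries. HH and WT did not overlap in either tissue. Without the filter its estimated effect was log2 3.30 ± 0.71 in muscle (edgeR adjusted p = 0.0875) and 1.82 ± 0.57 in fat (edgeR adjusted p = 0.0381), and the difference of effects, log2 1.48 ± 0.89, did not pass the test (edgeR adjusted p = 0.388).

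Library totals were 39.7 to 53.9 M counts in muscle and 22.6 to 58.8 M in fat. Markers of skeletal muscle fibres summed to 300803 to 400564 CPM in HH muscle and 333836 to 438309 CPM in WT muscle, and those of fat cells to 16331 to 33736 CPM in HH fat and 21138 to 43649 CPM in WT fat, so each tissue carried the markers of its label. Muscle libraries held fat cell markers too, which summed to 7555 to 11197 CPM in HH muscle and 6414 to 10547 CPM in WT muscle. Several fat libraries stood apart. Muscle fibre markers summed to 14343 CPM in fat HH 1 and 15364 CPM in fat WT 3, against 87.8 to 1499 CPM in the other fat libraries. Markers of B cells summed to 1508 to 3102 CPM in HH fat and 37.8 to 549 CPM in WT fat, and markers of T cells to 677 to 1545 CPM in HH fat and 99.4 to 364 CPM in WT fat, without overlap. In muscle the B cell sums were 3.42 to 5.62 CPM in HH libraries and 3.53 to 6.52 CPM in WT libraries, and of 17 B cell and 19 T cell markers only 1 and 2 reached the filter in both tissues. T cell marker sums in muscle were 13.2 to 22.8 CPM in HH libraries and 9.52 to 13.95 CPM in WT libraries, and overlapped. Markers of mammary and other epithelium split the fat libraries, at 1112 CPM in HH 2 and 680 CPM in HH 4, 2233 CPM in WT 3 and 1947 CPM in WT 4, against 7.39 to 66.6 CPM in the other 4. In muscle they summed to 115, 50.6 and 51.1 CPM in HH libraries, against 22.4 to 25.3 CPM in WT libraries, without overlap and highest in HH 1. Their part in the results below was not tested. Xist was found in 1 of 3 HH and 2 of 4 WT muscle libraries and in 1 of 4 HH and 2 of 4 WT fat libraries, the rest carrying Y-linked transcripts.

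**Figure D1:**
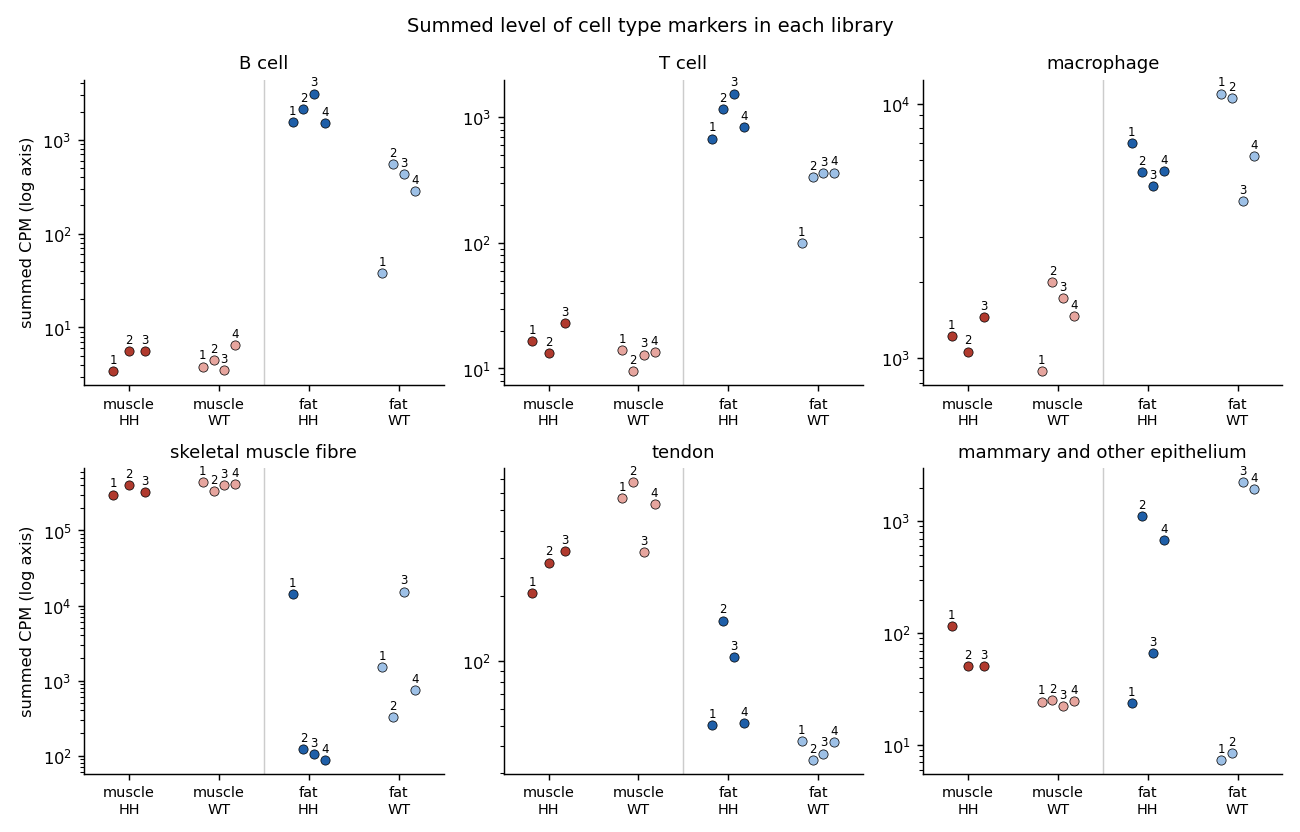
Summed level (CPM, log axis) of the markers of 6 cell types in each library, with the replicate number at each point and the groups HH muscle, WT muscle, HH fat and WT fat on the x axis. B and T cell sums of the 4 HH fat libraries all lie above those of the 4 WT fat libraries, and fat HH 1 and fat WT 3 stand above the other fat libraries in muscle fibre markers.

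The HH effect differed between the tissues for 668 of 11860 genes (5.63% of genes tested, edgeR quasi-likelihood test of the interaction, Benjamini-Hochberg adjusted p under 0.05). The difference was positive for 309 genes (2.61%) and negative for 359 (3.03%). Its size among the called genes ran from log2 0.43 to 5.54, with a median of 1.18, while the median difference over all tested genes was log2 0.02. In the same fit 44 genes (0.371%) changed with HH in muscle, 28 higher (0.236%) and 16 lower (0.135%), and 3620 genes (30.5%) changed in fat, 1874 higher (15.8%) and 1746 lower (14.7%). The fat count was 2033 where fat was fitted alone, and the common coefficient of variation between replicates was 33.5% in fat against 21.0% in muscle, which share their estimate of spread in the joint fit. HH and WT libraries did not overlap for 14.2% of tested genes in muscle and 25.7% in fat, in either direction. Where each tissue was fitted alone and the effects were subtracted, 2242 differences passed, with all 668 genes among them. That setting was chosen after seeing the data. Its p-values came from a normal approximation, which allows less for small groups than the quasi-likelihood F test, so its count is not on the same footing as 668.

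Most of the differences were in genes called in fat. Of the 668 genes, 591 passed the test of HH against WT in fat alone, lower in HH fat for 258 and higher for 333. The fat estimate was the larger in size for 564 of the 668, and the muscle and fat estimates had opposite signs for 580. With fewer calls in muscle, the adjusted threshold fell at a smaller unadjusted p there, so passing in fat alone does not mean that muscle was unchanged. A further 15 passed in muscle alone (11 higher in HH, 4 lower), 56 passed in neither tissue, 5 passed in both tissues with opposite signs, and Pttg1 passed in both with the same sign. The 56 genes that passed in neither tissue all had estimates of opposite sign. A difference has a larger error than either of its effects, so this was largely fixed by how these genes were picked. Over all tested genes the median size of the HH effect was log2 0.17 in muscle and 0.35 in fat. Across the 11860 genes, which are not independent and share libraries and scaling, the effects in muscle and fat had a Pearson r of 0.22 and a Spearman rho of 0.17.

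The number of calls rested on single libraries. Leaving out each library in turn gave between 135 and 1257 calls, and 11 of the 15 fits moved the count by over 1.5 times. It was 135 without muscle HH 1, 205 without muscle HH 3, 244 without muscle WT 1, 294 without muscle WT 3 and 261 without muscle WT 4. It was 1257 without fat HH 1, 317 without fat HH 2, 185 without fat HH 3, 219 without fat WT 1, 405 without fat WT 2 and 1231 without fat WT 3. With both fat libraries that carried muscle fibre RNA left out, 1968 genes passed, and 656 of the 668 were among them. None of the 668 genes changed the sign of its difference in any of these fits. The 44 calls in muscle were 15 without muscle HH 1, 90 without muscle HH 2, 18 without muscle WT 1, 20 without muscle WT 3 and 22 without muscle WT 4. The 3620 calls in fat were 2180 without fat HH 2, 1883 without fat HH 3 and 2115 without fat WT 1. With the level of lymphocyte markers as a covariate, edgeR called 0 differences and 876 genes had an unadjusted p under 0.05. That covariate does not overlap between HH and WT fat, so genotype and lymphocyte content of fat cannot be told apart there.

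**Figure D2:**
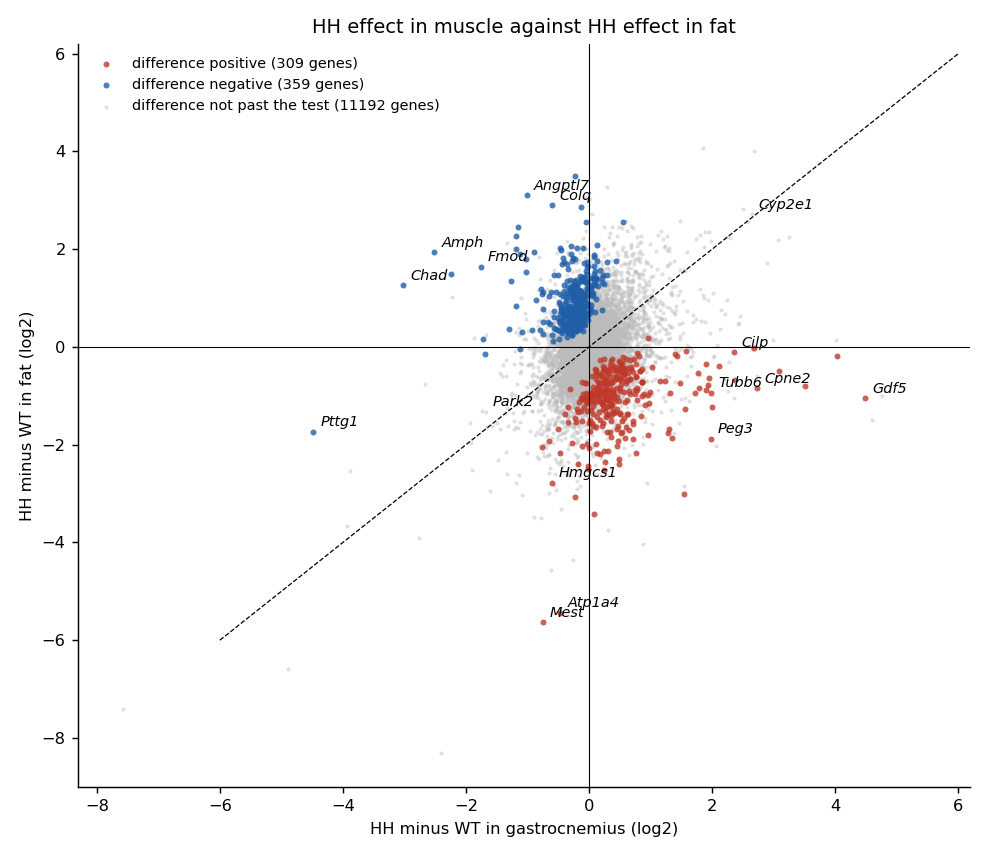
HH effect in gastrocnemius (x axis, log2) against HH effect in fat (y axis, log2), 1 point per tested gene, with the dashed line marking equal effects. The 309 genes with a positive difference lie below the line, mostly where fat is negative, and the 359 with a negative difference lie above it, mostly where fat is positive.

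The largest positive difference was that of Gdf5, a growth factor of the bone morphogenetic protein family (chr2:155941023-155945367). It had 21.8, 5.12 and 4.39 CPM in HH muscle, against 0.322, 0.413, 0.949 and 0.202 CPM in WT muscle. In fat it had 2.84, 0.796, 0.980 and 2.24 CPM in HH libraries, against 5.04, 4.32, 1.89 and 3.08 CPM in WT libraries. HH muscle lay wholly above WT muscle, and the fat groups overlapped. The effect was log2 4.48 ± 0.70 in muscle and -1.05 ± 0.58 in fat, and the difference of 5.54 ± 0.90 passed the test (edgeR adjusted p = 0.00903). Its mean in WT muscle was under 1 CPM, so Gdf5 reached the filter through the HH libraries. The same holds in muscle for Cntn2 and Erc2, and in fat for Amph, Chad, Angptl7, Cdh4, Prox1 and Rmi2, all described below. Atp1a4, Erc2 and Cux2 reached it in fat through the WT libraries, and Amph and Sema3a in muscle likewise. The CPM printed here are TMM-scaled, whereas the filter used library totals, on which muscle levels are lower. On the filter's scale Timp1, Bid and Col28a1, also described below, were under 1 CPM in WT muscle and passed through the HH libraries. Atp1a4 was under it in HH muscle and passed there through the WT libraries. Genes that pass in this way had to differ between the groups. Muscle HH 1 held the highest value. Without it the difference was log2 4.41 and still passed (edgeR adjusted p = 0.0221).

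Cpne2, a copine of the family of calcium-dependent membrane-binding proteins (chr8:94532674-94570529), had 187, 57.8 and 55.7 CPM in HH muscle, against 13.0, 18.8, 12.4 and 15.9 CPM in WT muscle. Fat levels were 28.5, 23.9, 24.7 and 22.7 CPM in HH libraries, against 49.2, 48.0, 36.1 and 46.7 CPM in WT libraries. The groups overlapped in neither tissue and lay in opposite orders. The effect in muscle was log2 2.74 ± 0.34, the effect in fat -0.85 ± 0.31, and the difference 3.59 ± 0.46 (edgeR adjusted p = 0.00402). Gadd45a, a stress-induced gene that p53 activates (chr6:67035096-67037407), had 301, 55.8 and 110 CPM in HH muscle, against 13.5, 8.72, 26.5 and 24.7 CPM in WT muscle. Its levels in fat were 4.71 to 8.11 CPM in HH libraries and 7.31 to 10.0 CPM in WT libraries. HH and WT were apart in muscle and overlapped in fat. The difference of effects was log2 3.58 ± 0.65 (edgeR adjusted p = 0.0139). Both genes peaked in muscle HH 1. Without that library the differences were log2 2.77 for Cpne2 (edgeR adjusted p = 0.000184) and 2.67 for Gadd45a (edgeR adjusted p = 0.0361).

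Of the 5 genes that passed the test in both tissues with opposite signs, Timp1, Tubb6 and Rap1gap2 were higher in HH muscle and lower in HH fat. Tubb6, a beta-tubulin (chr18:67390731-67402749), had 178, 94.2 and 67.2 CPM in HH muscle, against 24.1, 32.2, 29.2 and 29.1 CPM in WT muscle. The fat values were 22.6, 21.9, 19.1 and 25.3 CPM in HH libraries, against 53.8, 54.4, 27.8 and 33.8 CPM in WT libraries. The difference was log2 2.91 ± 0.40 (edgeR adjusted p = 0.00497). Beta-tubulin genes are alike in sequence, and how reads that match several of them were counted is not given in the sources used here. Rap1gap2, which switches off the small GTPase Rap1 (chr11:74383356-74610915), had 74.0, 44.0 and 38.7 CPM in HH muscle, against 14.2, 23.4, 15.3 and 10.6 CPM in WT muscle. In fat it had 28.9, 28.0, 21.5 and 31.3 CPM in HH libraries, against 65.3, 59.7, 40.8 and 44.3 CPM in WT libraries. The difference was log2 2.65 ± 0.37 (edgeR adjusted p = 0.00497). Timp1, an inhibitor of matrix metalloproteinases (chrX:20870166-20874737), averaged 4.43 ± 1.28 CPM in HH muscle (SD, n = 3) and 1.28 ± 0.225 CPM in WT muscle (SD, n = 4). In fat it averaged 2.38 ± 0.448 CPM in HH libraries and 4.26 ± 0.874 CPM in WT libraries (SD, n = 4 each), and the difference was log2 2.63 ± 0.34 (edgeR adjusted p = 0.00402). Timp1 lies inside Syn1 on the other strand, and the library kit keeps no strand, so reads of the pair cannot be told apart. All 3 genes kept HH and WT apart in both tissues and passed in all 15 fits that leave out 1 library. They were chosen for passing in these same libraries, so neither trait is separate support.

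Peg3, an imprinted zinc finger gene expressed from the paternal copy (chr7:6703892-6730462), had 32.8, 11.3 and 23.5 CPM in HH muscle, against 4.58, 7.36, 6.75 and 4.10 CPM in WT muscle. Fat levels were 26.2, 27.0, 10.8 and 28.1 CPM in HH libraries, against 79.0, 58.6, 146 and 54.7 CPM in WT libraries. The groups were apart in both tissues and in opposite order. The effect in muscle, log2 1.98 ± 0.43, did not pass by itself (edgeR adjusted p = 0.0818), the effect in fat of -1.88 ± 0.40 did (edgeR adjusted p = 0.00519), and the difference was 3.85 ± 0.59 (edgeR adjusted p = 0.00617). Cilp, a secreted matrix protein first known from cartilage (chr9:65265180-65280614), had 319, 110 and 138 CPM in HH muscle, against 33.3, 48.8, 26.2 and 38.8 CPM in WT muscle. Its level in fat was 6.69 to 8.26 CPM in HH libraries and 6.2 to 10.3 CPM in WT libraries. The groups were apart in muscle and overlapped in fat, and the difference was log2 2.47 ± 0.43 (edgeR adjusted p = 0.0128). Hpgd, the enzyme that inactivates prostaglandins, and Cntn2, an adhesion protein of axons, had differences of log2 4.31 ± 0.99 and 4.23 ± 1.12 (edgeR adjusted p = 0.0283 and 0.0441). Muscle HH 1 held 80.4 CPM of Hpgd, against 8.84 and 8.73 CPM in the other HH muscle libraries and 2.16 to 3.90 CPM in WT muscle. Without muscle HH 1 neither passed, at log2 2.42 for Hpgd (edgeR adjusted p = 0.0829) and 2.71 for Cntn2 (edgeR adjusted p = 0.135). Hpgd was also lost without muscle WT 1, 3 or 4, fat HH 2 or 3, or fat WT 1, and Cntn2 passed in 3 of the 15 fits.

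**Figure D3:**
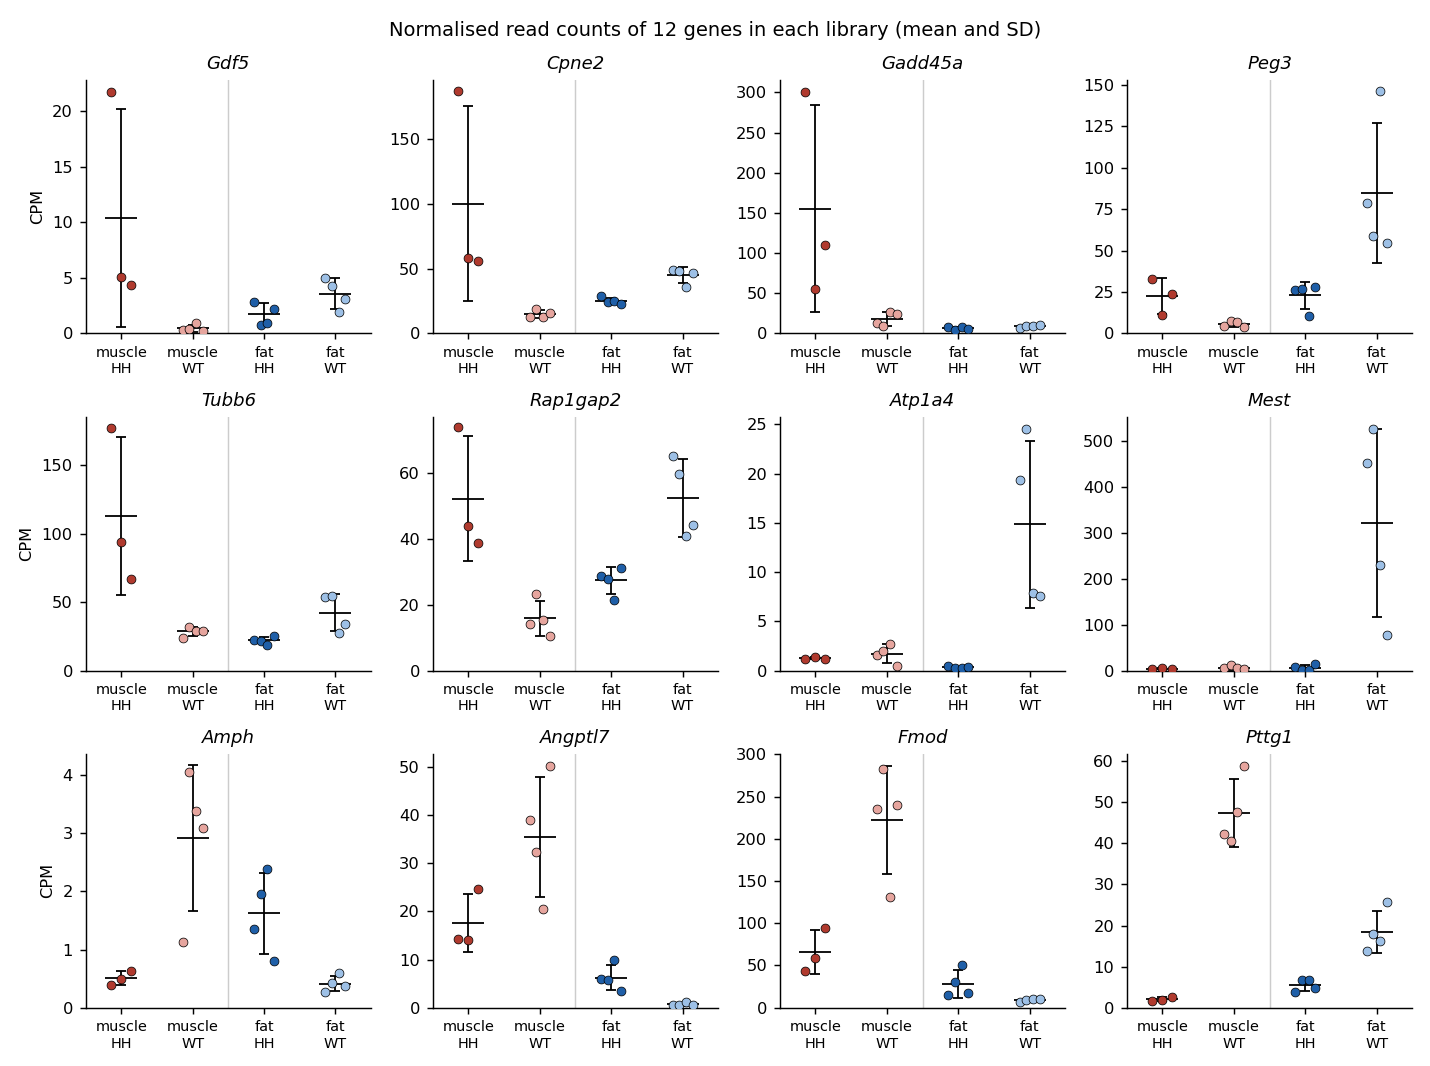
Normalised read counts (CPM, y axis from 0) of 12 genes in each library, as points, with the mean and SD of each group as bars, for HH muscle, WT muscle, HH fat and WT fat from left to right. Gdf5, Cpne2, Gadd45a, Peg3, Tubb6 and Rap1gap2 are higher in HH than WT muscle, Atp1a4 and Mest are near 0 in HH fat, Amph, Angptl7 and Fmod are lower in HH muscle than in most WT muscle libraries and higher in HH than WT fat, and Pttg1 is lower in HH in both tissues.

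Other large positive differences came from genes that fell in HH fat. Atp1a4, a catalytic subunit of the sodium pump best known from testis (chr1:172223508-172258424), had 0.431, 0.310, 0.245 and 0.353 CPM in HH fat, against 19.4, 24.6, 7.86 and 7.58 CPM in WT fat. In muscle it had 1.15, 1.35 and 1.20 CPM in HH libraries, against 1.61, 2.04, 2.73 and 0.471 CPM in WT libraries. HH and WT were far apart in fat and overlapped in muscle. The effect was log2 -0.47 ± 0.51 in muscle and -5.43 ± 0.54 in fat, with a difference of 4.96 ± 0.71 (edgeR adjusted p = 0.00514). Mest, an imprinted gene known in mice as a marker of fat tissue expansion (chr6:30733506-30748466), had 8.43, 1.52, 1.59 and 14.2 CPM in HH fat, against 451, 524, 230 and 78.1 CPM in WT fat. In muscle it had 2.44, 4.62 and 4.11 CPM in HH libraries, against 5.12, 12.1, 5.20 and 2.59 CPM in WT libraries. The difference of log2 4.88 ± 1.09 passed (edgeR adjusted p = 0.0270), though not without muscle HH 1 or 3, muscle WT 1, 3 or 4, fat HH 3 or fat WT 1, where the largest edgeR adjusted p was 0.0554. Over all 15 such fits the difference of Mest lay between log2 4.53 and 5.61.

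Erc2, a scaffold of presynaptic active zones, and the homeodomain factor Cux2 had differences of log2 4.56 ± 1.10 and 3.51 ± 0.92 (edgeR adjusted p = 0.0320 and 0.0419). Cux2 had 0.487 to 0.848 CPM in HH fat, against 14.2, 9.39, 3.16 and 0.876 CPM in WT fat. Erc2 had 0.0612 to 0.339 CPM in HH fat, against 2.44, 2.49, 0.355 and 0.385 CPM in WT fat. Erc2 passed in 7 and Cux2 in 5 of the 15 fits that leave out 1 library, with edgeR adjusted p up to 0.0737 for Erc2 and 0.0855 for Cux2. In Atp1a4, Mest, Erc2 and Cux2 alike, the WT fat libraries with Y-linked transcripts (1 and 2) were higher than those with Xist (3 and 4). With sex as a covariate edgeR called 537 differences, 455 of them among the 668, and these 4 genes passed (Mest at an edgeR adjusted p of 0.0412, Cux2 at 0.0493). Among libraries with Y-linked transcripts alone, the difference of Mest was log2 5.68 and did not pass (edgeR adjusted p = 0.0532), while the other 3 passed. That fit called 98 of the 668. Peg3, Gadd45a, Cdkn1a, Tpx2 and Adal were among those it did not call (edgeR adjusted p from 0.0519 to 0.055). With sex as a covariate, Runx1, Cntn2, Prox1, Sc5d, Col5a3 and Incenp did not pass (edgeR adjusted p from 0.0503 to 0.0769).

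The collagen chains, which form the fibres and basement membranes of connective tissue, had 4 of 24 tested members with a positive difference and 0 with a negative one, against 5.63% of all tested genes called. The median difference was log2 1.35, and 22 of 24 estimates were positive. By itself HH lowered 14 of the 24 in fat, against 14.7% of all tested genes, and raised Col27a1, while in muscle edgeR called 0 of 24 and 2 had an unadjusted p under 0.05 (median effect log2 -0.17 in muscle and -1.55 in fat). Col16a1 (chr4:130047817-130099277), a chain found beside fibrillar collagens, had 15.8, 18.6, 18.2 and 16.7 CPM in HH fat, against 74.9, 60.3, 107 and 67.8 CPM in WT fat. In muscle it had 12.2, 15 and 16.4 CPM in HH libraries, against 11.4, 19.9, 11.9 and 10.1 CPM in WT libraries. The fat groups did not overlap, the muscle groups did, and the difference was log2 2.29 ± 0.31 (edgeR adjusted p = 0.00497). Col8a1, a short-chain collagen of vessels, had a difference of log2 2.45 ± 0.32 (edgeR adjusted p = 0.00402), Col5a3 one of 2.06 ± 0.56 (edgeR adjusted p = 0.0460) and Col28a1, a chain known from peripheral nerve, one of 2.59 ± 0.58 (edgeR adjusted p = 0.0267). Col28a1 had 5.27, 4.95 and 4.55 CPM in HH muscle, against 2.0, 1.39, 0.683 and 1.01 CPM in WT muscle, without overlap. Col8a1 and Col16a1 passed in all 15 fits that leave out 1 library, Col28a1 in 10 and Col5a3 in 5. The main chains Col1a1 and Col3a1 had differences of log2 1.11 and 1.32 that did not pass (edgeR adjusted p = 0.223 and 0.177). The count was 2 to 9 over the fits that leave out 1 library, lowest without muscle HH 1, muscle HH 3, muscle WT 4, fat HH 3 or fat WT 1 and highest without fat WT 3, with 7 without fat HH 1. It was 13 without both fat HH 1 and fat WT 3. Markers of fibroblasts and fat progenitors summed to 15746, 4937, 4467 and 11103 CPM in HH fat, against 15741, 12998, 9906 and 13691 CPM in WT fat, and B and T cell markers were higher in every HH fat library. The part of these cells in the collagen differences was not tested.

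The elastic fibre and matricellular list, whose members are secreted proteins of elastic fibres and proteins that modulate contact of cells with matrix, had 3 positive and 2 negative calls among 30 tested members, against 2.61% and 3.03% of all tested genes, with a median difference of log2 1.03. In fat 15 members fell and 3 rose, against 14.7% and 15.8% of all tested genes, and in muscle Cilp alone rose. The positive calls were Cilp, Bgn and Fbln2. Bgn, the proteoglycan biglycan, had 148, 169 and 207 CPM in HH muscle, against 82.2, 132, 116 and 96.6 CPM in WT muscle, and 234 to 305 CPM in HH fat, against 282 to 498 CPM in WT fat. Its difference was log2 1.22 ± 0.28 (edgeR adjusted p = 0.0283). Fbln2, which stands outside the naming rule and encodes fibulin 2, had a difference of log2 1.68 (edgeR adjusted p = 0.0337). Over the fits that leave out 1 library the count ran from 3 to 10, lowest without muscle HH 1, muscle HH 3, muscle WT 1, muscle WT 4, fat HH 3 or fat WT 1 and highest without fat HH 1. It was 15 without both fat libraries that held muscle fibre RNA.

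The negative calls of that list, Fmod and Thbs4, are also tendon markers, and of 8 tested tendon markers 3 had a negative difference, Chad, Fmod and Thbs4, against 3.03% of all tested genes. The estimates were negative in 6 and positive in 2 of the 8, from log2 -4.29 to 1.98, with a median of -1.84. Leaving out the 3 markers with a group mean under 1 CPM, 2 of 5 had a negative difference. Fmod, a collagen-binding proteoglycan of tendon (chr1:134037254-134048280), had 44.0, 58.4 and 94.8 CPM in HH muscle, against 235, 282, 131 and 240 CPM in WT muscle. The fat values were 14.9, 31.0, 50.6 and 16.9 CPM in HH libraries, against 6.25, 9.09, 10.2 and 10.8 CPM in WT libraries. HH was lower than WT in muscle and higher in fat, without overlap in either. The difference was log2 -3.40 ± 0.57 (edgeR adjusted p = 0.0106), with an effect of -1.76 ± 0.42 in muscle (edgeR adjusted p = 0.110) and 1.64 ± 0.38 in fat (edgeR adjusted p = 0.00765). Chad, the cartilage matrix protein chondroadherin (chr11:94565047-94569127), had 2.04, 1.14 and 7.30 CPM in HH muscle, against 22.9, 36.6, 13.4 and 40.9 CPM in WT muscle. In fat it had 1.10, 1.02, 1.77 and 0.919 CPM in HH libraries, against 0.303, 0.260, 0.592 and 0.806 CPM in WT libraries. The groups again lay apart and in opposite order, and the difference was log2 -4.29 ± 0.82 (edgeR adjusted p = 0.0174), or -4.02 without muscle HH 1 (edgeR adjusted p = 0.0509). Thbs4, a thrombospondin of tendon and muscle, had 7.78, 4.32, 7.93 and 6.45 CPM in HH fat, against 1.79, 1.28, 1.87 and 1.70 CPM in WT fat, and 92.4 to 173 CPM in HH muscle, against 118 to 235 CPM in WT muscle. This gave a difference of log2 -2.43 ± 0.38 (edgeR adjusted p = 0.00692). Summed over the list, tendon markers were at 207 to 323 CPM in HH muscle and 320 to 676 CPM in WT muscle, and at 50.2 to 154 CPM in HH fat and 34.7 to 42.5 CPM in WT fat. How much tendon was taken with each muscle was not tested.

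Among other genes with large negative differences, Amph passed the test in both tissues. Amph, the endocytic protein amphiphysin (chr13:18948142-19154032), had 0.395, 0.498 and 0.632 CPM in HH muscle, against 1.13, 4.05, 3.38 and 3.09 CPM in WT muscle. Fat levels were 1.35, 1.96, 2.39 and 0.801 CPM in HH libraries, against 0.273, 0.434, 0.592 and 0.368 CPM in WT libraries. The groups did not overlap in either tissue. The effects were log2 -2.51 ± 0.48 in muscle (edgeR adjusted p = 0.0381) and 1.94 ± 0.41 in fat (edgeR adjusted p = 0.00521), and the difference was -4.46 ± 0.63 (edgeR adjusted p = 0.00497). Adal, an adenosine deaminase-like enzyme, was the other gene that was lower in HH muscle and higher in HH fat, and it lies on the chromosome of Bub1b (chr2:121140044-121159440). It had 20.6, 20.9 and 17.4 CPM in HH muscle, against 35.4, 32.5, 32.8 and 35.7 CPM in WT muscle, and 13.2, 10.4, 12.3 and 13.7 CPM in HH fat, against 9.30, 9.97, 9.84 and 9.6 CPM in WT fat. Its difference of log2 -1.16 ± 0.15 was small and its groups did not overlap (edgeR adjusted p = 0.00402).

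Angptl7, a secreted angiopoietin-like protein (chr4:148495181-148500462), had 6.00, 5.84, 9.79 and 3.39 CPM in HH fat, against 0.546, 0.651, 1.12 and 0.525 CPM in WT fat. In muscle it had 14.2, 14.1 and 24.5 CPM in HH libraries, against 38.9, 32.3, 20.4 and 50.1 CPM in WT libraries. HH fat lay wholly above WT fat, and the muscle groups overlapped. The difference was log2 -4.12 ± 0.54 (edgeR adjusted p = 0.00402). Sema3a, a secreted guidance cue of axons, had 7.37, 8.47, 7.29 and 4.71 CPM in HH fat, against 0.50, 1.34, 1.37 and 1.84 CPM in WT fat, and 0.856 to 1.14 CPM in HH muscle, against 1.21 to 2.77 CPM in WT muscle. Its difference was log2 -3.61 ± 0.53 (edgeR adjusted p = 0.00599). Angptl7, Sema3a, Amph, Adal, Fmod and Thbs4 passed in all 15 fits that leave out 1 library. Colq, which anchors acetylcholinesterase at the neuromuscular junction, had 11.6, 23, 30.4 and 9.99 CPM in HH fat, against 0.273, 2.65, 4.29 and 2.80 CPM in WT fat, with a difference of log2 -3.49 ± 0.82 (edgeR adjusted p = 0.0299). Cyfip2, a subunit of the actin-regulating WAVE complex, had 59.2, 132, 159 and 81.5 CPM in HH fat, against 10.5, 29.4, 26 and 23.7 CPM in WT fat, with a difference of log2 -3.45 ± 0.77 (edgeR adjusted p = 0.0270). Both Colq and Cyfip2 were highest in fat HH 3 and next in fat HH 2, the libraries with the most B and T cell marker RNA, and the part of lymphocytes in their difference was not tested.

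Cdh4 (R-cadherin), Prox1 (a transcription factor of lymphatic endothelium) and Rmi2 (a partner of the Bloom helicase) completed the 10 largest negative differences, at log2 -3.74 ± 0.81, -3.72 ± 0.93 and -3.18 ± 0.62 (edgeR adjusted p = 0.0252, 0.0361 and 0.0182). Cdh4 had 10.8, 20 and 8.76 CPM in HH muscle, against 101, 79.8, 40.5 and 29.9 CPM in WT muscle. Prox1 had 1.74, 11.2, 5.14 and 2.17 CPM in HH fat, against 0.121, 0.499, 0.497 and 0.683 CPM in WT fat. Rmi2 was lost without muscle HH 1 (log2 -3.00, edgeR adjusted p = 0.0525). Cdh4 was lost without muscle HH 1 or 3, fat HH 3 or fat WT 1, Cyfip2 without muscle HH 1, muscle WT 3, fat HH 3 or fat WT 1, and Prox1 and Colq passed in 4 and 7 of the 15 fits. The largest edgeR adjusted p in those fits was 0.0679 for Cdh4, 0.0677 for Cyfip2, 0.0800 for Prox1 and 0.0829 for Colq.

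Of the list of DNA replication and mitosis genes, which copy the genome and build the spindle, 16 of 30 were expressed in both tissues, and 6 of the 16 had a negative difference past the test (Tpx2, Aurka, Pole, Mcm4, Mcm3 and Rrm1), against 3.03% of all tested genes. The median difference was log2 -1.03, and the 16 estimates were all negative, from -2.62 to -0.30. In fat 12 of the 16 were higher in HH, against 15.8% of all tested genes, and in muscle edgeR called 0 while 4 had an unadjusted p under 0.05, with a median effect of log2 -0.11. The cell division genes absent from the test, Mki67 and Top2a among them, were under 1 CPM in 1 or both tissues.

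Aurka, a mitotic kinase of spindle poles (chr2:172356190-172370886), had 7.38, 12.4 and 5.91 CPM in HH muscle, against 27.0, 18.6, 15.8 and 17.1 CPM in WT muscle. The fat values were 3.89, 7.34, 9.24 and 6.41 CPM in HH libraries, against 3.69, 3.73, 3.95 and 3.54 CPM in WT libraries. HH was below WT in muscle without overlap, and in fat only HH 1 reached down into the WT range. The difference was log2 -2.04 ± 0.40 (edgeR adjusted p = 0.0197). Tpx2, which activates Aurka at the spindle, had 4.05, 5.15 and 7.24 CPM in HH muscle, against 21.0, 17.4, 8.61 and 5.99 CPM in WT muscle, and 6.32, 14.4, 18.6 and 16.7 CPM in HH fat, against 5.0, 7.94, 4.78 and 4.31 CPM in WT fat. This gave a difference of log2 -2.62 ± 0.60 (edgeR adjusted p = 0.0283). Mcm4, a subunit of the replicative helicase, had 27.2, 40.2, 42.3 and 38.6 CPM in HH fat, against 12.5, 18.4, 18.8 and 20.8 CPM in WT fat, and 5.33 to 9.01 CPM in HH muscle, against 7.28 to 9.21 CPM in WT muscle. Its difference was log2 -1.31 ± 0.29 (edgeR adjusted p = 0.0267). Pole, the leading-strand DNA polymerase, had a difference of log2 -1.36 ± 0.31 (edgeR adjusted p = 0.0271).

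The count of 6 was 0 without muscle HH 1, where the median difference was log2 -0.94, and 1 without fat HH 3. It was 2 without muscle HH 2, muscle WT 1, muscle WT 4, fat HH 2 or fat WT 1, 3 without muscle HH 3, 9 without fat HH 1, and 8 without both fat HH 1 and fat WT 3. Aurka was lost without muscle HH 1 alone (edgeR adjusted p = 0.0556), while Tpx2 passed in 8, Pole in 9 and Mcm4 in 10 of the 15 fits that leave out 1 library. In edgeR 12 of the 16 had an unadjusted p under 0.05, DESeq2 called 8 and limma voom called 4. Over all 11860 tested genes these counts were 3156, 1659 and 601. The rise of these genes in HH fat went with more B and T cell marker RNA in every HH fat library, and its part in their difference was not tested.

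Promoter sequences are shown for Mcm3 and Rrm1 of this list and for Smc3 of the spindle checkpoint list described next, the called members whose RefSeq promoter entry (GRCm38.p6) ends at the annotated start of the gene. Mcm3 and Rrm1 are named for their sequence, outside the naming rule. The helicase subunit Mcm3 had a difference of log2 -1.12 (edgeR adjusted p = 0.0326), and the ribonucleotide reductase subunit Rrm1 one of log2 -1.09 (edgeR adjusted p = 0.0292). Mcm3 had 33.2, 54.4, 64.6 and 53.8 CPM in HH fat, against 17.3, 24.1, 21.8 and 18.8 CPM in WT fat, and Rrm1 had 27.1, 40.7, 44.1 and 45 CPM in HH fat, against 17.0, 26.7, 24 and 24 CPM in WT fat. Each sequence is the 250 bases before the start, 5′ to 3′ on the strand of the gene, chr1:20820313-20820562 (minus strand) for Mcm3, chr7:102441445-102441694 (plus strand) for Rrm1 and chr19:53600146-53600395 (plus strand) for Smc3. Capitals mark CCAAT, or ATTGG where the box is on the other strand.
Mcm3: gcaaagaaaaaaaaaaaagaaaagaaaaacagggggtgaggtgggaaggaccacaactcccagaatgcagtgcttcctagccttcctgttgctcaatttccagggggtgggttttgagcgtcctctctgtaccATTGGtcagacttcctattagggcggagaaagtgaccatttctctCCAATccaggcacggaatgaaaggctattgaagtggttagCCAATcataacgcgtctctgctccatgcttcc
Rrm1: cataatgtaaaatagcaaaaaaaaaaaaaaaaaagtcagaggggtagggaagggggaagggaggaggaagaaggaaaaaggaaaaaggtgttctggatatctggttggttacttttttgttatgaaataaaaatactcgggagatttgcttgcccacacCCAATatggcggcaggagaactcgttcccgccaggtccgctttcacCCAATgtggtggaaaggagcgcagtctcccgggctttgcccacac
Smc3: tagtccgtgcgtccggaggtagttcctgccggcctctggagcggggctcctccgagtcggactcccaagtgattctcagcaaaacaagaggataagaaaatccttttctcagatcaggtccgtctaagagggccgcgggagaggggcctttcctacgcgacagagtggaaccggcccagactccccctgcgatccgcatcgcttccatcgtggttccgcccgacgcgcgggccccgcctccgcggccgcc
The box occurs 3 times in the Mcm3 window, 2 times in the Rrm1 window and 0 times in the Smc3 window. Of the 28 tested members of this list and of the spindle checkpoint list, 21 had a promoter entry and 15 of these held the box, as did 3 of the 5 called members with an entry. It stood in 33.8% of 32851 promoters and in 40.1% of the 8971 tested genes with an entry. The cell cycle homology element TTTGAA stood in 2 of the 21, in 16.0% of all promoters and in 12.3% of those of tested genes. An E2F site (TTTCCCGC, TTTGGCGC, TTTCGCGC or TTTGCCGC) stood in 4 of the 21, in 1.90% of all promoters and in 3.80% of those of tested genes. Of the 5 called members with an entry, 0 held either of these. A match is a description of these letters in this window on either strand.

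Pttg1 encodes securin, the inhibitor that holds separase until anaphase (chr11:43420244-43427463). It had 1.68, 1.99 and 2.66 CPM in HH muscle, against 42.3, 40.7, 47.5 and 58.9 CPM in WT muscle. In fat it had 3.92, 6.65, 6.79 and 4.80 CPM in HH libraries, against 13.9, 18, 16.3 and 25.7 CPM in WT libraries. HH lay below WT without overlap in both tissues. The effect was log2 -4.49 ± 0.29 in muscle and -1.74 ± 0.23 in fat, and the difference of -2.75 ± 0.35 passed (edgeR adjusted p = 0.00402), in all 15 fits that leave out 1 library too. Pttg1 belongs to the spindle checkpoint and separase list, of whose 12 tested members 3 had a negative difference, against 3.03% of all tested genes, and all 12 estimates were negative (median log2 -0.38). The others were Incenp, a subunit of the chromosomal passenger complex, at log2 -1.22 ± 0.30 (edgeR adjusted p = 0.0327), and Smc3, a cohesin subunit, at log2 -0.73 ± 0.18 (edgeR adjusted p = 0.0325). Incenp had 15.9, 27.2, 31.2 and 20.2 CPM in HH fat, against 9.80, 13.4, 9.07 and 8.99 CPM in WT fat. The count of 3 fell to 1 without any of muscle HH 1, 2 or 3, muscle WT 1 or 4, fat HH 2 or 3, or fat WT 1, and Pttg1 passed in each of these fits. It was 5 without both fat HH 1 and fat WT 3.

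**Figure D4:**
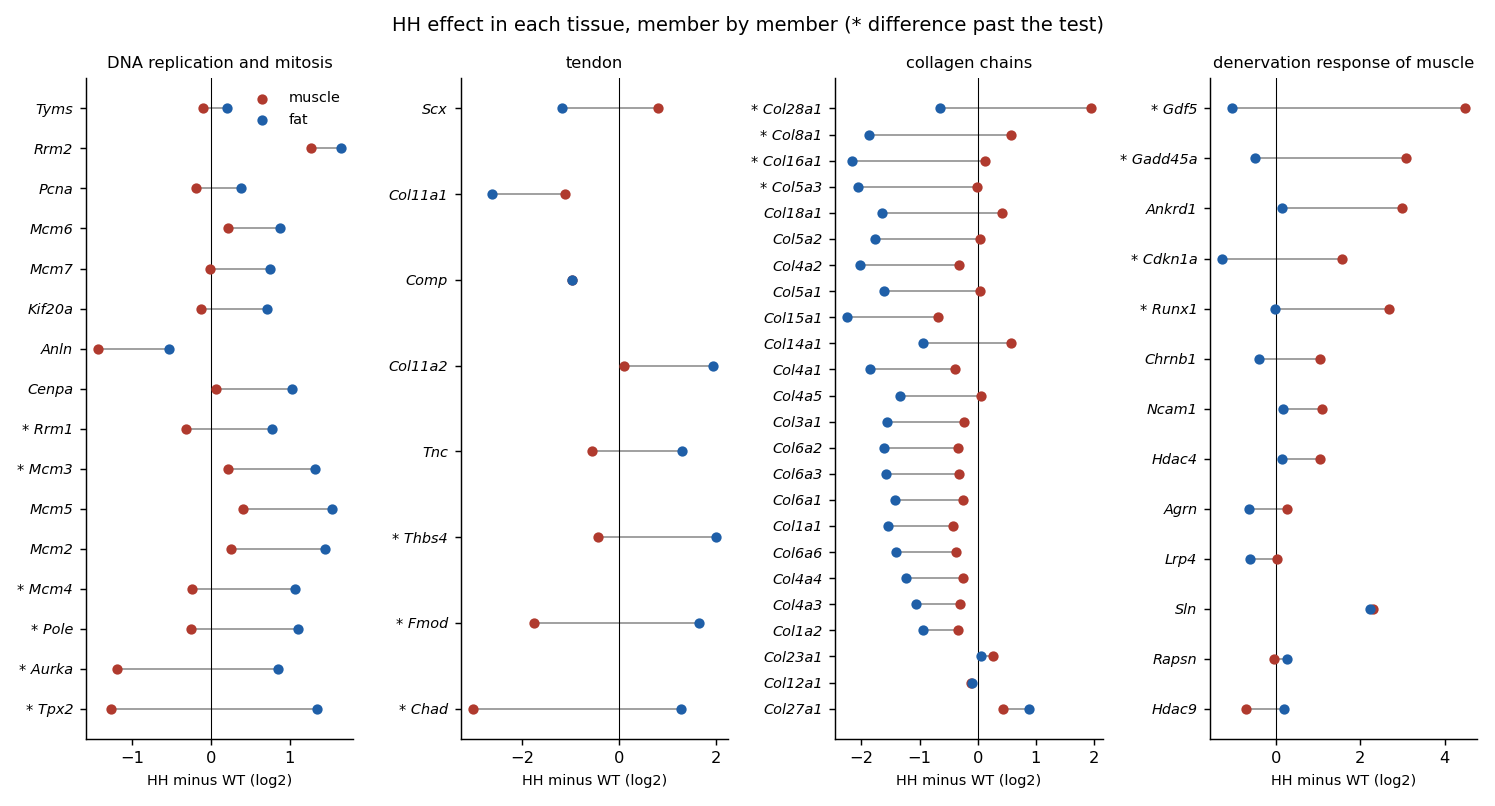
HH effect (log2, x axis) of the tested members of 4 gene lists in muscle (red) and fat (blue), 1 denervation gene left out, with the members ordered by the difference and an asterisk on those whose difference passed the test. Most collagen chains sit left of 0 in fat (22 of 24), most replication genes right of 0 in fat (all but Anln), and most denervation genes right of 0 in muscle.

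The denervation list holds genes linked to the neuromuscular junction or to the response of muscle to loss of its nerve. Not all of them are known to rise then. Of its 25 genes 14 were tested, and the 11 under the filter include Chrna1, Chrng, Musk, Myog and Myh3. Of the 14, 4 had a positive difference (Gdf5, Gadd45a, Cdkn1a and Runx1), against 2.61% of all tested genes, with a median of log2 1.19 and estimates below 0 in 2 of the 14. In muscle, 3 of the 14 rose with HH, against 0.236% of all tested genes, and Cdkn1a fell in fat. Leaving out the 4 members with a group mean under 1 CPM, Gdf5 among them, 3 of 10 had a positive difference and 2 rose in muscle. Runx1, a transcription factor (chr16:92601466-92826074), had 49.1, 13.3 and 16.9 CPM in HH muscle, against 3.87, 4.52, 4.06 and 4.07 CPM in WT muscle, and 15.6 to 39.1 CPM in HH fat, against 12.9 to 38.7 CPM in WT fat. The muscle groups were apart, the fat groups overlapped, and the difference was log2 2.70 ± 0.65 (edgeR adjusted p = 0.0325). Cdkn1a, the cell cycle inhibitor p21 (chr17:29090979-29100722), had 316, 77.8 and 115 CPM in HH muscle, against 43.5, 39.5, 43.7 and 103 CPM in WT muscle. Fat levels were 29.8, 44.8, 32.5 and 45.1 CPM in HH libraries, against 99.7, 112, 87.0 and 68.7 CPM in WT libraries. The fat groups did not overlap, and the difference was log2 2.84 ± 0.59 (edgeR adjusted p = 0.0236). Without muscle HH 1, neither Runx1 (log2 1.89, edgeR adjusted p = 0.0944) nor Cdkn1a (log2 2.02, edgeR adjusted p = 0.0525) passed, and Gdf5 and Gadd45a did. The count of 4 was 2 without muscle HH 1 or fat HH 3. Cdkn1a was also lost without fat HH 3, and Runx1 without muscle WT 1, 3 or 4, fat HH 3 or fat WT 4.

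The p53 target list held 3 positive calls in 26 tested members, Gadd45a, Cdkn1a and Sesn2, against 2.61% of all tested genes, with a median difference of log2 0.20. Of its 26 estimates 8 were below 0, 2 of them at an unadjusted p under 0.05. The list of muscle atrophy and FoxO targets held 2 positive calls in 23, again Gadd45a and Cdkn1a, against the same 2.61% (median log2 0.61). Both counts were 1 without muscle HH 1 or fat HH 3 and 6 without fat HH 1, and they were 7 and 9 without both fat HH 1 and fat WT 3. The ubiquitin ligases of muscle atrophy, Fbxo32 and Trim63, had differences of log2 1.43 and 1.56 that did not pass (edgeR adjusted p = 0.249 and 0.677). Sesn2, a stress-induced inhibitor of mTORC1 signalling, had 12.6, 11.6, 12.2 and 12.6 CPM in HH fat, against 48.0, 42.1, 28.1 and 19.5 CPM in WT fat, and 4.54 to 5.39 CPM in HH muscle, against 2.66 to 5.32 CPM in WT muscle. This gave a difference of log2 1.68 ± 0.37 (edgeR adjusted p = 0.0267), and it was lost without muscle HH 1 or 3, muscle WT 3, fat HH 3 or fat WT 1 (largest edgeR adjusted p = 0.0597). Of 17 tested imprinted growth genes 3 had a positive difference, Mest, Peg3 and Peg10, against 2.61% of all tested genes (median log2 0.49). Peg10 had 6.26, 4.19 and 5.53 CPM in HH muscle, against 2.71, 3.28, 2.24 and 2.72 CPM in WT muscle, and 2.91, 1.20, 1.07 and 4.31 CPM in HH fat, against 7.83, 6.35, 11.4 and 7.44 CPM in WT fat. Its groups did not overlap in either tissue, and the difference was log2 2.75 ± 0.55 (edgeR adjusted p = 0.0197), lost without muscle HH 1, where the count of imprinted genes was 1.

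Lipid genes differed between the tissues in single members. Acacb, the acetyl-CoA carboxylase whose product restrains mitochondrial fatty acid oxidation (chr5:114146321-114250761), had 223, 152, 151 and 119 CPM in HH fat, against 42.3, 35.9, 56.1 and 40.9 CPM in WT fat. In muscle it had 671, 552 and 513 CPM in HH libraries, against 553, 591, 524 and 515 CPM in WT libraries. HH fat lay wholly above WT fat, the muscle groups overlapped, and the difference was log2 -1.80 ± 0.29 (edgeR adjusted p = 0.00768). Acacb was the only call among 20 tested genes of fatty acid synthesis (5%), near the 5.63% of all tested genes called. Of 22 cholesterol synthesis genes, Hmgcs1 and Sc5d had positive differences of log2 2.17 ± 0.50 and 1.28 ± 0.34 (edgeR adjusted p = 0.0288 and 0.0441), against 2.61% of all tested genes called higher. Hmgcs1, the enzyme that makes the pathway's first committed building block, had 48.0, 38.7, 50.4 and 56.0 CPM in HH fat, against 460, 537, 195 and 131 CPM in WT fat, and 34.4 to 40.0 CPM in HH muscle, against 48.8 to 72.4 CPM in WT muscle. Both tissues were lower in HH without overlap, fat more so. Hmgcs1 passed in 6 and Sc5d in 3 of the 15 fits that leave out 1 library, neither of them without muscle HH 1, 2 or 3, muscle WT 1, 3 or 4, fat HH 2 or 3, or fat WT 1, with edgeR adjusted p up to 0.0666 and 0.0918.

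In 16 of the 41 lists with at least 5 tested members, edgeR called a difference in 0 members. These lists held 309 tested members between them, of which 27 had an edgeR unadjusted p under 0.05, DESeq2 called 12 and limma voom called 2. Over all 11860 tested genes these counts were 3156, 1659 and 601. The 16 lists were picked for having 0 calls, so low counts were in part fixed by that choice. They included fatty acid oxidation, oxidative phosphorylation, the TCA cycle, glycolysis, fatty acid uptake, interferon-stimulated genes, proteasome subunits and cytosolic ribosomal proteins. Fatty acid oxidation genes had a median HH effect of log2 -0.45 in muscle and -0.66 in fat. Estimates were below 0 in 26 of 26 members in fat and above 0 in 1 of 26 in muscle. In fat 11 of the 26 fell past the test, against 14.7% of all tested genes, and in muscle edgeR called 0. At an edgeR unadjusted p under 0.05 there were 10 of the 26 in muscle and 19 in fat. Over all 11860 tested genes these counts were 1388 and 5261. The median difference of the oxidation genes was log2 0.16. The 25 interferon-stimulated genes had a median effect of log2 0.58 in muscle and 0.41 in fat. Of these edgeR called 0 in muscle, and 3 higher and 1 lower in fat, against 15.8% and 14.7% of all tested genes. A difference that misses the threshold does not show that the effects were equal.

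**Figure D5:**
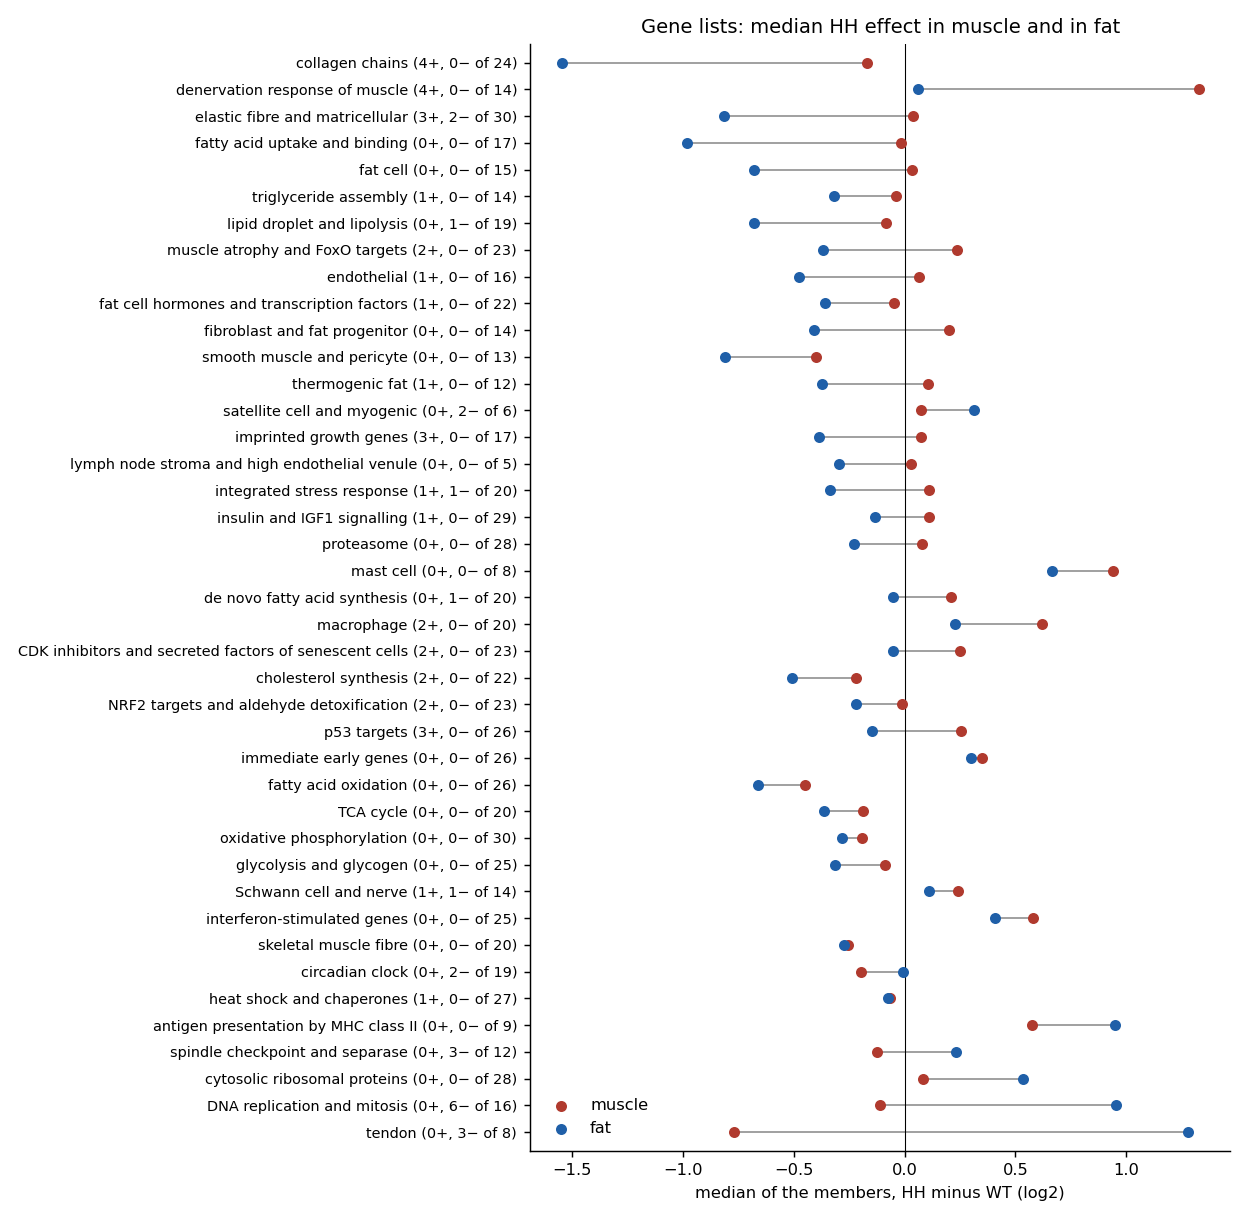
Median HH effect (log2, x axis) of the tested members of each list in muscle (red) and fat (blue), with the number of members whose difference passed the test in each direction beside the list's name. Collagen chains stand at -1.55 in fat and -0.17 in muscle, and tendon markers have the reverse order of the tissues.

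Some genes changed with HH in the same direction in both tissues, and whether their effects were equal was not tested. Of the 44 genes called in muscle, 21 had a difference past the test (47.7%), and of the 3620 called in fat 16.5% did. The muscle calls had to reach a smaller unadjusted p than the fat calls, so these shares are not on the same footing. In both tissues 15 genes changed in the same direction with no difference called, 9 higher and 6 lower in HH. Cyp2e1, a cytochrome P450 that oxidises ethanol and other small molecules, had 68.1, 62.4 and 93.8 CPM in HH muscle, against 8.38, 17.1, 14.3 and 8.14 CPM in WT muscle. The fat values were 1152, 1374, 595 and 390 CPM in HH libraries, against 110, 166, 80.0 and 177 CPM in WT libraries. Its effect was log2 2.64 ± 0.43 in muscle and 2.72 ± 0.41 in fat, and the difference was -0.08 ± 0.57 (edgeR adjusted p = 0.947). Bid, a trigger of apoptosis, and Hn1, a small microtubule-associated protein, rose in both tissues as well, with differences of log2 0.34 ± 0.36 and 0.35 ± 0.21 (edgeR adjusted p = 0.565 and 0.289). Park2, the ubiquitin ligase parkin, had 11, 11.8 and 8.98 CPM in HH muscle, against 36.4, 34.3, 34.0 and 31.2 CPM in WT muscle, and 3.19, 1.95, 2.08 and 2.35 CPM in HH fat, against 7.63, 5.96, 5.58 and 4.91 CPM in WT fat. Its difference was log2 -0.35 ± 0.25 (edgeR adjusted p = 0.380). Gadd45gip1, a protein of the mitochondrial ribosome, fell by 0.93 in muscle and by 0.60 in fat on the log2 scale, with a difference of -0.33 ± 0.19 (edgeR adjusted p = 0.267). Each of these 5 genes kept HH and WT apart in both tissues.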

How the data were processed

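RNA-seq libraries were made with the TruSeq v2 kit, per the labels' protocols, which does not keep the strand of the RNA. The deposited values are raw read counts per gene. Per the submitters' processing notes the authors used TopHat2 2.0.14, Bowtie2 2.2.6, featureCounts 1.4.6 of the Subread package and the mm10 build; the annotation, strand setting and rule for reads that match several places are not given in the sources used here. Gene positions and promoters come from RefSeq on GRCm38 (23901 of 24062 symbols matched).

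From the counts of 15 libraries, edgeR 4.0.16 (R 4.3.3) fitted 1 coefficient per group with TMM scaling over both tissues on genes whose mean reached 1 CPM both in muscle and in fat. Quasi-likelihood F tests gave the HH effects and their difference, adjusted by Benjamini-Hochberg over 11860 genes at a threshold of 0.05. The SE after a log2 value was derived from the test, as the size of the log2 value divided by the square root of its F statistic. Printed CPM use TMM-scaled library sizes and are set side by side only within a tissue, while the filter used library totals without TMM scaling. Alternatives used DESeq2 1.42.0 and limma 3.58.1 (voom). Reads carry no molecular identifiers and are not independent molecules, so depth bounds counting error only.

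Named genes were Bub1b, Cdkn2a and Pttg1, the 10 largest called differences of each sign with HH and WT apart in at least 1 tissue, up to 4 of each sign past the test in both tissues with opposite signs, 3 of each direction past the test in both with the same sign, and up to 4 called members of each list described, predicted genes and pseudogenes left out. The comparison, the rule and the gene lists were chosen with earlier results of these data known. Called genes were named from the same libraries, so groups that lie apart and fits that leave out 1 library are not separate support. Values of some genes are not reported here, though they stay in the fits and list counts.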

Additional observations from a re-analysis of the deposited data

Results flagged for a closer look

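Among the genes named for the size of their difference, for Pttg1 and for those past the test in both tissues with opposite signs, 25 passed the test of the difference itself. The differences, as log2 of the muscle effect minus the fat effect, were 5.54 for Gdf5, 4.96 for Atp1a4, 4.88 for Mest, 4.56 for Erc2, 4.31 for Hpgd, 4.23 for Cntn2, 3.85 for Peg3, 3.59 for Cpne2, 3.58 for Gadd45a and 3.51 for Cux2. They were 2.91 for Tubb6, 2.65 for Rap1gap2 and 2.63 for Timp1. On the negative side they were -4.46 for Amph, -4.29 for Chad, -4.12 for Angptl7, -3.74 for Cdh4, -3.72 for Prox1, -3.61 for Sema3a, -3.49 for Colq, -3.45 for Cyfip2, -3.40 for Fmod, -3.18 for Rmi2, -2.75 for Pttg1 and -1.16 for Adal.

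In 9 of 204 groups of 4 libraries (68 genes, 4.41%), 1 library stood apart from the other 3 by Dixon's criterion, which chance meets in about 1 in 20 groups. Among HH fat libraries, Peg3 was lowest in HH 3 (10.8 CPM), Smc3 was lowest in HH 1 (41.3 CPM), and Cilp and Vcam1 were highest in HH 2 (8.26 and 184 CPM). Among WT muscle libraries, Gadd45gip1 and Cdkn1a were highest in WT 4 (55.4 and 103 CPM), Hmgcs1 in WT 2 (72.4 CPM) and Srxn1 in WT 3 (113 CPM). Among WT fat libraries, Sc5d was lowest in WT 3 (47.9 CPM). HH muscle has 3 libraries, too few for this criterion.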

How the results depend on the processing

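None of the 668 genes changed the sign of its difference in any setting in which it was fitted, but of the 3620 genes called in fat 145 changed the sign of their fat effect with lymphocyte markers as a covariate, 4 in libraries with Y-linked transcripts, and 1 without fat HH 1, alone or with fat WT 3. The 668 differences (309 higher, 359 lower) became 1659 (757, 902) by DESeq2 and 407 with 193 lower without the filter. They became 177 (97, 80) in libraries with Y-linked transcripts alone. By edgeR with lymphocyte markers as a covariate there were 0 (0, 0), with 876 at an unadjusted p under 0.05. Without fat HH 1 and fat WT 3 there were 1968 (969, 999), and with each tissue fitted alone 2242 (1169, 1073). Both of these alternatives were chosen after seeing the data, and the 2242 rest on a normal approximation. The 44 calls in muscle (28, 16) became 294 (193, 101) by DESeq2, 144 (78, 66) by voom, 29 with 10 lower at 5 CPM or more, 26 (18, 8) with sex as a covariate, 8 (4, 4) in libraries with Y-linked transcripts, and 10 lower with lymphocyte markers. The 3620 calls in fat became 2033 (1175, 858) with fat fitted alone and 0 (0, 0) with lymphocyte markers (775 at an unadjusted p under 0.05). The cause of these changes was not tested. Leaving out 1 library gave 135 to 1257 differences (78 to 602 higher, 57 to 655 lower), 15 to 90 calls in muscle (9 to 66, 6 to 24) and 1883 to 4258 in fat (1056 to 2163, 827 to 2120). Fat HH 3 had the smallest total (22.6 M counts); with all libraries thinned to the smallest, 635 differences passed.

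Whether replicate numbers pair muscle and fat libraries is not settled. Same-numbered muscle and fat libraries correlated at -0.128 to 0.0999 in their deviations, which cannot show whether they share a mouse. Number 3 of HH carries Xist in muscle and Y-linked transcripts in fat, so that number does not mark a shared mouse. The other numbers matched in sex-linked transcripts. Same-numbered HH and WT libraries of a tissue, which are from different mice, correlated at -0.247 to 0.351. With the number as a replicate block there were 654 differences, 507 of them among the 668, and 24 calls in muscle (17, 7). With a replicate block per mouse, which assumes that numbers mark mice, there were 418 differences (179, 239).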

Other observations

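Of 19 tested clock genes 2 differed between the tissues, against 5.63% of all tested genes, and the list went both ways, with 9 estimates above and 10 below 0 and a median of log2 -0.03. Cry1, a repressor of the circadian clock, had 17.5, 15.3 and 19.9 CPM in HH muscle, against 23.3, 24.2, 22.3 and 23.1 CPM in WT muscle. In fat it had 12.2, 12.2, 13.4 and 9.30 CPM in HH libraries, against 7.64, 7.96, 7.31 and 6.45 CPM in WT libraries. HH lay below WT in muscle and above WT in fat without overlap, and the difference was log2 -1.08 ± 0.19 (edgeR adjusted p = 0.0113). Ciart, another clock repressor, had 10.3, 5.33 and 9.04 CPM in HH muscle, against 11.9 to 22.8 CPM in WT muscle, and 2.36 to 6.24 CPM in HH fat, against 0.932 to 1.89 CPM in WT fat. Its difference was log2 -2.55 ± 0.52 (edgeR adjusted p = 0.0211). Both passed in all 15 fits that leave out 1 library, and the hour at which tissue was taken is not given in the sources used here.

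Of 20 tested macrophage markers 2 had a positive difference, Lgals3 and Gpnmb, against 2.61% of all tested genes. Both were lower in HH fat, while the median fat effect of the list was log2 0.23 with 8 of 20 estimates below 0. Lgals3, the lectin galectin-3, had 35.0, 21.9 and 35.0 CPM in HH muscle, against 12.4, 18.1, 18.4 and 13.6 CPM in WT muscle. In fat it had 67.9, 101, 58.5 and 59.6 CPM in HH libraries, against 176, 203, 146 and 115 CPM in WT libraries. The groups did not overlap in either tissue, and the difference was log2 2.13 ± 0.34 (edgeR adjusted p = 0.00768). Gpnmb, a glycoprotein of lipid-laden macrophages, had 36.2, 25.4, 18.3 and 17.5 CPM in HH fat, against 137, 62.0, 79.5 and 48.7 CPM in WT fat, with a difference of log2 2.04 ± 0.43 (edgeR adjusted p = 0.0243). The median difference of the macrophage markers was log2 0.21. Their count was 1 without muscle HH 3 or fat HH 3.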
